A study of Mus musculus with 8 samples.

Results

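Spectrins, plastins, alpha-actinins and an ankyrin build and anchor the actin cytoskeleton. Spectrins are long rods that assemble from alpha and beta chains into a mesh under the plasma membrane, which ankyrins tie to membrane proteins. Plastins and alpha-actinins crosslink actin filaments into bundles, and alpha-actinins also anchor filaments at focal adhesions. In these cells 9 of the 54281 genes quantified were followed: the beta-spectrin genes *Sptb* and *Sptbn1*, the alpha-spectrin gene *Sptan1*, the ankyrin gene *Ank1*, the plastin genes *Pls3*, *Pls1* and *Lcp1*, and the alpha-actinin genes *Actn1* and *Actn4*. *Sptb* and *Pls3* were chosen by their higher levels in *Tet1* KO than in WT cells, and the other 7 are relatives or partners that were added to them. The KO against WT values of the 9 genes are therefore a description and carry no support of their own.

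The libraries were polyA RNA-seq of epiblast-like cells (EpiLCs), cultured cells that model the formative epiblast before the primitive streak. Each of 8 lines gave 1 library: KO1, KO9, KO15 and KO25 were *Tet1* KO, and WT7, WT17, WT12 and WT34 were WT, so the spread within a group mixes line, culture and library. All were mouse embryonic stem cell lines of the B6129S6F1 background, the KO lines carrying the Tet1<tm1Koh> allele, and all had been taken from 2iL medium into N2B27 with 1% KOSR and 12 ng/ml bFGF for 2 days. Column names ended in b1 for KO1, KO9, WT7 and WT17 and in b2 for KO15, KO25, WT12 and WT34, a suffix whose meaning the sources used here do not give. By the paper's text the ESC lines are male and were derived as littermate pairs from blastocysts, but which KO and WT lines form a pair is not stated. Lines are named by their titles, which for WT12 and WT17 differ from the cell line labels (WT9 and WT12).

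Estimated counts summed to between 13916576 and 23680839 per library. *Tet1*, the targeted gene, had 559 to 851 CPM (counts per 1000000 of the scaled library size) in WT and 38.4 to 54.2 CPM in KO lines. In TPM it had 60.5 to 91.5 in WT and 21.6 to 32.0 in KO lines, so the ratio of the KO to the WT mean was 0.0638 in CPM and 0.330 in TPM. Core pluripotency genes summed to 731 to 817 TPM (the deposited values, which are scaled by transcript length) and formative and primed genes to 519 to 777 TPM, and 6 of 6 and 8 of 8 of these genes reached a mean of 1 TPM. WT12 stood apart: it had 13.3 TPM of *Xist*, the RNA of the inactive X chromosome, against 0.103 to 0.514 TPM in the other 7 lines, and its Y-linked *Eif2s3y*, *Ddx3y* and *Uty* had 5.20, 2.24 and 2.65 TPM, each the lowest of the 8 lines. Y-linked *Kdm5d* had 0.232 to 0.422 TPM over the 8 lines and 0.241 TPM in WT12.

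The start regions of *Sptb* and *Pls3* are shown because the values of both genes separated all KO from all WT lines, as given below, and because TET1 is an enzyme that oxidizes methylated cytosine in CpG dinucleotides. *Sptb* (ENSMUSG00000021061.15) lies on the minus strand of mm10 at chr12:76580488-76710547, and *Pls3* (ENSMUSG00000016382.15) on the minus strand at chrX:75785654-75875182. Each window runs from 250 bases before to 50 bases after an annotated start in RefSeq on GRCm38.p6, the assembly that mm10 names, and holds the end of the promoter and the beginning of the first exon. The *Sptb* window is chr12:76710498-76710797 and the *Pls3* window chrX:75875121-75875420, both given on the minus strand with each CpG in capitals.
Sptb: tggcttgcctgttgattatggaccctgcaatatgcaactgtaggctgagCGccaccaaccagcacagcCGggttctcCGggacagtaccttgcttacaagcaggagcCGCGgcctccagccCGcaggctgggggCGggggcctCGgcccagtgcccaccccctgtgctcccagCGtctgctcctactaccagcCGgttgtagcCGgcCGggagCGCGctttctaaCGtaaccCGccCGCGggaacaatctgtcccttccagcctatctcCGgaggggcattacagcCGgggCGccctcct
Pls3: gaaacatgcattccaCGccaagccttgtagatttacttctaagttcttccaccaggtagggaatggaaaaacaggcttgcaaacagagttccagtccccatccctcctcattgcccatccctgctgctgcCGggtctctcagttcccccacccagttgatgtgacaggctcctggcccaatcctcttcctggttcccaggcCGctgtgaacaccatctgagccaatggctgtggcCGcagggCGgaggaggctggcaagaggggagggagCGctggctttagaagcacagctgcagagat
The *Sptb* window held 21 CpG, more than 75.2% of the 32851 windows of the table, and the *Pls3* window 6 CpG, more than 43.6% of them, against a median of 7. The other *Pls3* starts held 6 and 3 CpG. Methylation at these windows was not analysed here. Across the 12 windows of the 8 genes with an entry, which were all but *Ank1*, GGGCGG on either strand was found in 8 windows, which belong to 7 genes, and in 35.7% of all windows. The *Pls3* windows chrX:75875121-75875420 and chrX:75875133-75875432 overlap, so the same GGGCGG site is counted in both. TATAAA on either strand and the CArG box, the motif of serum response factor, were found in none of the 12, against 13.6% and 1.63% of all windows. The windows of *Sptan1*, *Actn4*, *Actn1* and *Pls1* held 37, 35, 24 and 16 CpG. *Sptbn1* had a window with 21 and another with 2 CpG, and *Lcp1* a window with 19 and another with 4 CpG.

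The first question was at which level each gene stood. *Actn4*, a non-muscle alpha-actinin, had the highest level with 141 ± 17.8 TPM (SD, n = 8 lines). *Sptan1*, the alpha chain of the spectrin of non-erythroid cells, had 72.2 ± 7.24 TPM and *Actn1*, the other non-muscle alpha-actinin, 41.1 ± 5.74 TPM. *Sptbn1*, the widely expressed beta chain, had 21.7 ± 1.52 TPM and *Pls3*, the plastin of many solid tissues, 15.5 ± 2.63 TPM. *Sptb*, the beta chain known from red cells, had 4.51 ± 1.22 TPM and *Pls1*, the plastin known from the brush border of the gut, 2.61 ± 0.860 TPM. *Lcp1*, the plastin of leukocytes, had 0.280 ± 0.0607 TPM, and *Ank1*, the ankyrin of red cells, rested on 1 to 9 counts per library. Each of the 8 neighbouring pairs in this order kept its order in 8 of 8 lines, by mean differences of 0.50 to 3.61 on the log2 TPM scale. The two-sided exact sign-flip permutation test gave p = 0.00781 for each pair, also after adjustment over the 8 pairs, which is the smallest value that 8 lines allow. The order was set by the means of the same 8 lines, so these p-values speak only to how steady it was over lines. The pair of *Lcp1* and *Ank1* differed by 3.61 ± 1.80 (SD over lines), the widest spread among the pairs.

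The place of *Sptan1* turned on the length that divided its counts. It had a mean of 311 CPM (289 to 342 over the 8 lines) and *Sptbn1* a mean of 406 CPM (342 to 458), so *Sptan1* had fewer counts but the higher TPM. The length that counts and TPM together imply for a gene was 1571 to 1972 nucleotides for *Sptan1*, against 8018 nucleotides for its longest coding transcript, and the annotation holds 7 coding transcripts of this gene of 781 nucleotides upward. For *Sptbn1* the implied length was 7637 to 8104 nucleotides and the longest coding transcript 9107 nucleotides. An implied length leaves out about 1 fragment length, assumed to be 250 bases, which the transcript lengths include. Divided by the longest coding length, *Sptbn1* had 44.6 ± 3.73 CPM per kb and *Sptan1* 38.8 ± 2.09 CPM per kb. On that scale, added after the data had been seen, *Sptbn1* was the higher in 7 of 8 lines, by 0.20 ± 0.13 (SD) in log2 (exact sign-flip p = 0.0156, and the same after adjustment over 8 pairs). *Actn1* then stood at 60.1 ± 5.40 CPM per kb, above both spectrin genes, and the order of *Pls3*, *Sptb*, *Pls1*, *Lcp1* and *Ank1* below them was as in TPM.

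**Figure D1:**
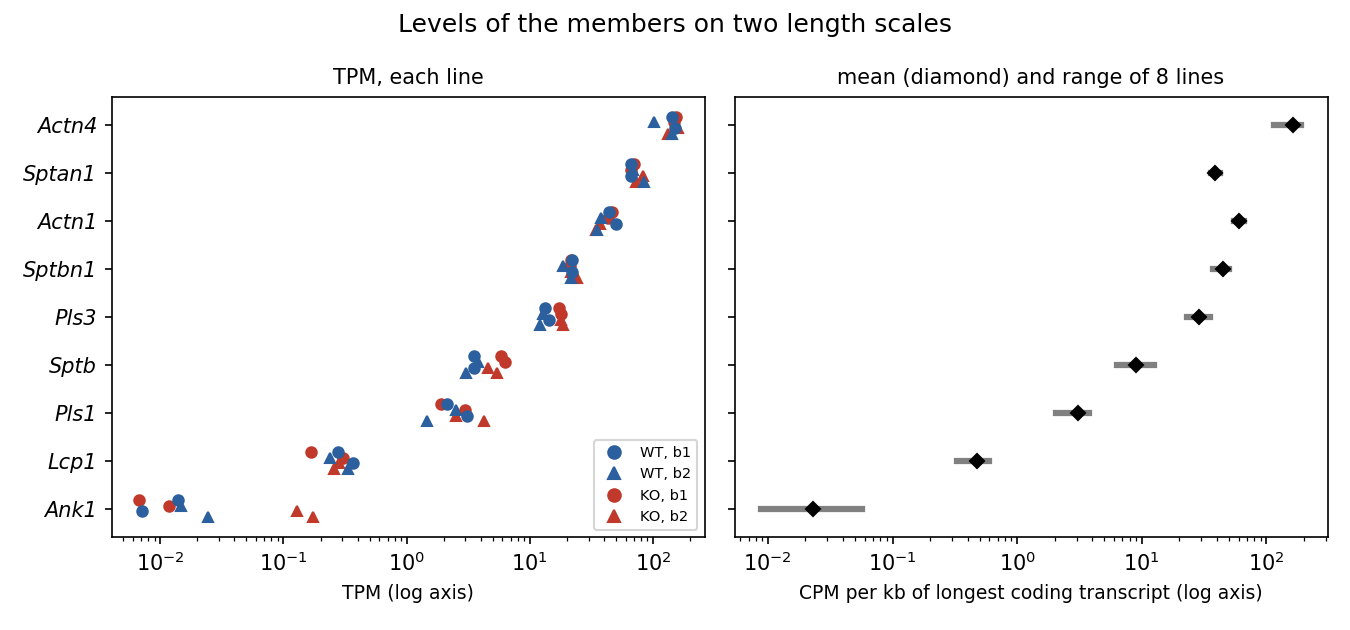
Levels of the 9 genes on log axes: left, TPM in each of the 8 lines (blue WT, red *Tet1* KO, circles b1, triangles b2); right, mean (diamond) and range (bar) over the 8 lines of CPM per kb of the longest coding transcript. *Sptan1* stands next to *Actn4* in TPM (72.2 TPM) and below *Actn1* and *Sptbn1* on the right (38.8 CPM per kb).

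The implied lengths move with the mix of isoforms, but a change between isoforms of like length leaves no trace in them. The lengths were steady for *Sptb* (8621 to 8853 nucleotides, coefficient of variation 0.863%), *Sptbn1* (2.10%) and *Pls3* (2418 to 2643 nucleotides, 2.92%). They spread 1.92-fold for *Pls1*, from 1386 to 2656 nucleotides. The spread was 1.51-fold for *Lcp1*, 1.26-fold for *Sptan1*, 1.19-fold for *Actn1* and 1.12-fold for *Actn4*. For *Ank1* the lengths ran from 178 to 6362 nucleotides on its few counts. Between b2 and b1 no gene's relative length passed after adjustment over the 9 genes. A single gene could not have passed, because the smallest possible p of this test fails the adjustment on its own. The test therefore decides nothing about any single gene. *Actn1* and *Actn4* came nearest, with mean relative lengths in b2 and b1 of 1.04 and 0.963 for *Actn1* and of 1.03 and 0.970 for *Actn4* (exact permutation p = 0.0286 each, the smallest possible with 4 against 4 lines; adjusted p = 0.129). Lengths in nucleotides assume a mean fragment of 250 bases and a scale set in each line on 547 genes with a single transcript. The coefficients of variation, the fold spread and the relative lengths rest on another scale of each line, the median over genes with enough counts in every library. They can therefore differ slightly from the spread of the lengths in nucleotides.

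Sequence shared with other genes bears on how counts are divided. None of the 31-base stretches of the *Pls3* and *Pls1* transcripts occurred in another gene's transcripts, and 0.206% of those of *Sptb*, 0.709% of *Sptbn1* and 0.191% of *Sptan1* did. The share was 5.46% for *Ank1*, 5.87% for *Actn4*, 8.50% for *Actn1* and 14.4% for *Lcp1*. Among the 9 genes, *Actn1* and *Actn4* alone shared such stretches, 51 of them. *Lcp1* shared 500 with the predicted gene *Gm6201* and *Ank1* 746 with the predicted gene *Gm15816*, and both had few counts, so their values are uncertain.

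*Sptb* had 121 CPM in KO1, 130 in KO9, 96.7 in KO15 and 114 in KO25, against 76.4 in WT7, 76.7 in WT12, 68.5 in WT17 and 66.1 in WT34. Every KO line stood above every WT line, with KO15 the lowest KO line. The means were 116 ± 14.3 and 71.9 ± 5.45 CPM (SD, n = 4 lines), and the log2 fold change was 0.69 with a standard error of 0.11 (adjusted p = 0.130). *Pls3* had 105 CPM in KO1, 114 in KO9, 110 in KO15 and 106 in KO25, against 81.6 in WT7, 74.9 in WT12, 79.5 in WT17 and 74.9 in WT34. Again no KO line reached down to a WT line. The means were 109 ± 4.10 and 77.7 ± 3.35 CPM (SD, n = 4 lines), with a log2 fold change of 0.48 and a standard error of 0.07 (adjusted p = 0.0923). Of all 17272 genes tested, 2.39% had all KO lines above all WT lines in CPM.

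None of the 8 members that passed the filter on low counts was called at an adjusted p under 0.05 in edgeR's test, where 0.0405% of all genes tested were called, and *Sptb* and *Pls3* were the 2 with an unadjusted p under 0.05, as were 5.62% of all genes. With the column suffix as a block both were called (adjusted p = 0.0252 and 0.0169), as 0.162% of all genes were, and DESeq2 called both as well (adjusted p = 2.26e-05 and 1.43e-07), where it called 0.660%. Within b1 the log2 fold changes were 0.80 for *Sptb* (standard error 0.08, adjusted p = 0.0369) and 0.44 for *Pls3* (standard error 0.08, adjusted p = 0.146), and 0.109% of genes were called. Within b2 they were 0.57 (standard error 0.15) and 0.53 (standard error 0.12), each with an adjusted p of 0.999. Leaving out KO15 brought *Sptb* to an adjusted p of 0.0485, the only call among the fits without 1 line. Over the 18 alternatives both genes stayed higher in KO, *Sptb* by 0.54 to 0.80 and *Pls3* by 0.42 to 0.53 on the log2 scale. *Pls3* is X-linked, and the 611 X-linked genes tested stood at a median of −0.09 on the log2 scale, 201 of them above 0, against 0.00 for the other 16661 genes. Without WT12 the X-linked median was −0.01, and *Pls3* stood at 0.46 (standard error 0.08) and *Sptb* at 0.72 (standard error 0.12).

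**Figure D2:**
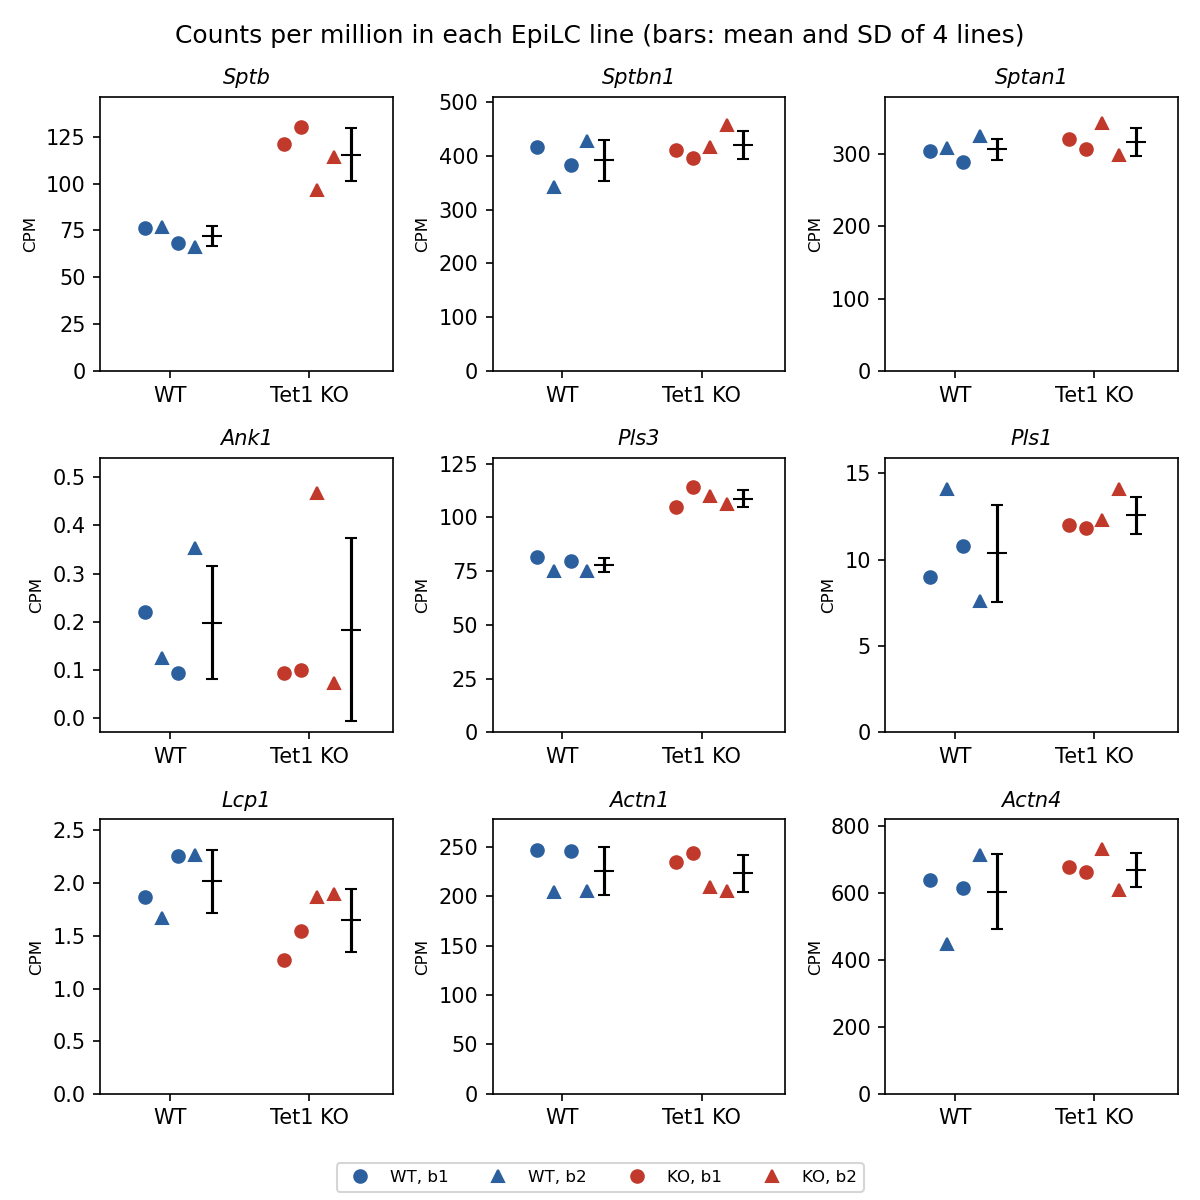
CPM of the 9 genes in each line (blue WT, red *Tet1* KO, circles b1, triangles b2), with the mean and SD of the 4 lines of a group as black bars. KO and WT points do not overlap for *Sptb* (96.7 to 130 against 66.1 to 76.7 CPM) and *Pls3* (105 to 114 against 74.9 to 81.6 CPM) and overlap for the other 7 genes, and all b2 points of *Actn1* lie below its b1 points.

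The paralogues and partners had smaller differences over all 8 lines, and KO and WT lines overlapped in each. *Sptbn1* had 410 CPM in KO1, 395 in KO9, 417 in KO15 and 458 in KO25, against 416 in WT7, 342 in WT12, 383 in WT17 and 427 in WT34, a log2 fold change of 0.10 (standard error 0.09). *Sptan1* ran from 298 to 342 CPM over the KO lines and from 289 to 324 CPM over the WT lines, with a log2 fold change of 0.05 (standard error 0.07). Both other spectrin genes thus stood within 0.10 of 0 on the log2 scale. *Pls1* had 12.0 CPM in KO1, 11.8 in KO9, 12.3 in KO15 and 14.1 in KO25, against 8.96 in WT7, 14.1 in WT12, 10.8 in WT17 and 7.58 in WT34. WT12 was level with the highest KO line, and the other WT lines lay below every KO line. The log2 fold change of 0.27 (standard error 0.19) was 0.45 without WT12 (standard error 0.16, edgeR adjusted p = 0.858). *Pls3* stood at 0.46 in that fit. *Lcp1* ran from 1.27 to 1.90 CPM over the KO lines and from 1.67 to 2.27 CPM over the WT lines, on 26 to 48 counts per library, with a log2 fold change of −0.29 (standard error 0.25) that was −0.55 in b1 and −0.05 in b2.

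The alpha-actinins stood close to 0 as well. *Actn1* had 234 CPM in KO1, 244 in KO9, 209 in KO15 and 205 in KO25, against 247 in WT7, 204 in WT12, 246 in WT17 and 205 in WT34, with a log2 fold change of −0.02 (standard error 0.10). *Actn4* had 678 CPM in KO1, 662 in KO9, 730 in KO15 and 607 in KO25, against 639 in WT7, 448 in WT12, 614 in WT17 and 713 in WT34. Its lowest value was that of WT12, and its log2 fold change was 0.15 (standard error 0.13) over all lines and 0.03 (standard error 0.09) without that library. The adjusted p was 0.998 for each of these 6 genes. *Ank1* had 2 counts in KO1, 2 in KO9, 9 in KO15 and 1 in KO25, against 4 in WT7, 3 in WT12, 2 in WT17 and 5 in WT34, too few for the test. The 8 members tested had a median log2 fold change of 0.12, against 0.00 over all genes tested.

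**Figure D3:**
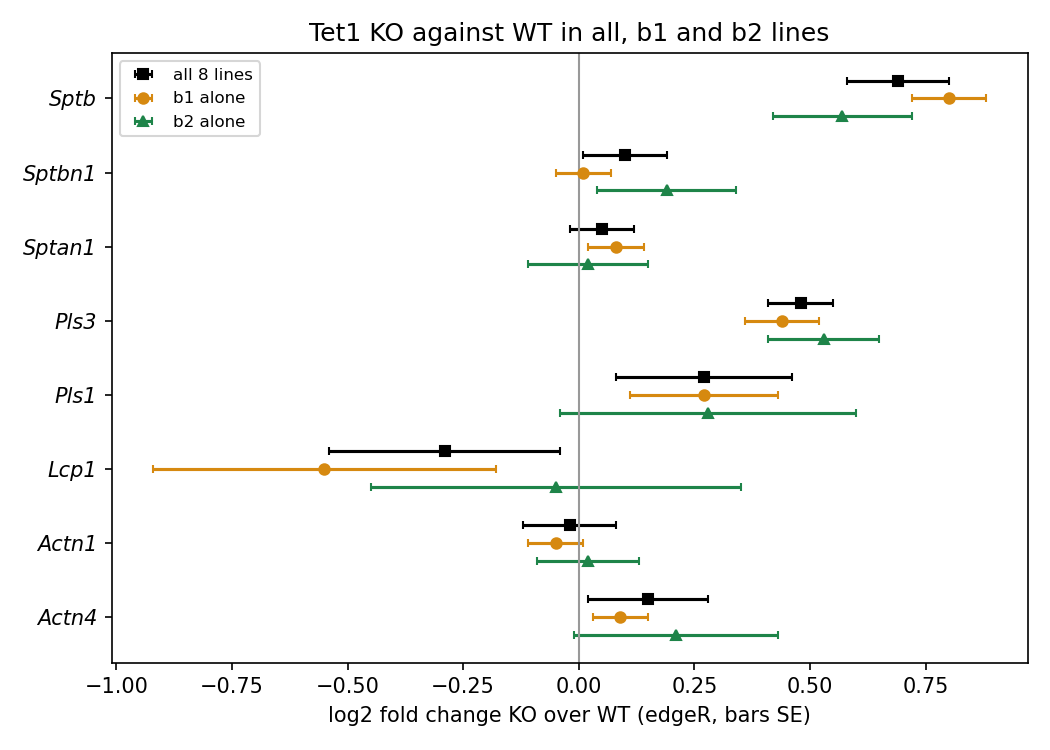
Log2 fold change of *Tet1* KO over WT for the 8 members tested (points, with bars for the standard error of the edgeR fit), over all 8 lines (black squares), b1 alone (orange circles) and b2 alone (green triangles). *Sptb* (0.69, 0.80 and 0.57) and *Pls3* (0.48, 0.44 and 0.53) stand to the right of 0 in all 3 fits, while *Sptbn1*, *Sptan1*, *Actn1* and *Actn4* lie within 0.21 of 0. *Pls1* (0.27, 0.27 and 0.28) also stands to the right of 0, with wider bars, and *Lcp1* (−0.29, −0.55 and −0.05) to the left.

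Shares within a family put the paralogues side by side. Of the summed TPM of *Sptb* and *Sptbn1*, *Sptb* made up 21.3% in KO1, 22.8% in KO9, 17.4% in KO15 and 18.4% in KO25, against 13.7% in WT7, 13.8% in WT17 and 12.4% in WT34. WT12, the highest WT line, stood just below KO15, and the means were 20.0 ± 2.48% in KO and 14.2 ± 1.96% in WT (SD, n = 4 lines). *Pls3* made up 80.3 to 89.3% of the summed TPM of the plastins over the 8 lines, with means of 85.1 ± 3.75% in KO and 83.6 ± 2.77% in WT (SD, n = 4 lines). *Pls1* supplied 9.87 to 18.6% and *Lcp1* 0.867 to 2.43%. *Actn1* supplied 18.9 to 27.2% of the alpha-actinin TPM, its highest share being that of WT12. Between b2 and b1 none of the 5 shares passed the test (exact permutation p from 0.343 to 0.886, adjusted p = 0.886 for each). With 4 against 4 lines a single share could not have passed after adjustment, so the test decides nothing about any single share.

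The b2 against b1 comparison, with genotype in the model, is not the contrast that chose *Sptb* and *Pls3*. Their choice can still have favoured a small spread within KO and within WT lines, which a difference between b2 and b1 widens. The values of these genes between b2 and b1, and in the interaction below, are therefore not free of that choice. *Actn1* was lower in b2, with 204, 205, 205 and 209 CPM in WT12, WT34, KO25 and KO15 against 234, 244, 246 and 247 CPM in KO1, KO9, WT17 and WT7. No b2 line reached a b1 line, as for 12.4% of all genes in this direction. The means were 206 ± 2.09 and 243 ± 6.13 CPM (SD, n = 4 lines), and the log2 difference was −0.24 (standard error 0.05) with an edgeR adjusted p of 0.00865. It was called in all 16 alternatives run, at −0.35 to −0.23. *Actn1* was the only one of the 8 members called, while 24.6% of all 17272 genes were called between b2 and b1. The other 7 members had log2 differences from −0.14 for *Sptb* (standard error 0.09, adjusted p = 0.288) to 0.16 for *Lcp1* (standard error 0.24, adjusted p = 0.672). Its paralogue *Actn4* had −0.06 (standard error 0.13, adjusted p = 0.783).

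The sums of some marker lists moved with the suffix beside *Actn1*, though few genes carried most of each sum. The 11 fibroblast markers summed to 20.2 to 30.2 TPM in b1 and 5.85 to 17.7 TPM in b2. Only 2 of them had a mean of at least 1 TPM, *Thy1* with 15.6 and *Dcn* with 1.66 TPM. *Postn* was at 0 in every line. The 10 leukocyte markers summed to 15.1 to 18.3 TPM in b1 and 9.45 to 13.5 TPM in b2. Only 3 of them had a mean of at least 1 TPM, *Laptm5* with 7.66, *Cd68* with 3.49 and *Coro1a* with 2.39 TPM. *Ptprc* had a mean of 0.0343 TPM and *Tyrobp* was at 0. These sums do not measure shares of fibroblasts or leukocytes. The sum of formative and primed genes went the other way, with 519 to 622 TPM in b1 and 633 to 777 TPM in b2. So did that of core pluripotency genes, with 731 to 768 TPM in b1 and 793 to 817 TPM in b2. The highest means were 309 TPM for *Dnmt3a* and 248 for *Dnmt3b* in the formative and primed list. In the core list they were 457 TPM for *Pou5f1* and 160 for *Utf1*. The part of these lists in the lower *Actn1* was not tested, and the suffix cannot be told apart from anything else that differed between the sets of lines. In bulk RNA a smaller share of cells that express a gene and less RNA per cell cannot be told apart.

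The difference between KO and WT was next compared between b1 and b2 as an interaction. None of the 8 members was called, and 0% of the 17272 genes tested were (227 genes had an unadjusted p under 0.05, none of them a member; DESeq2 called 2 genes and no member). For *Sptb* the KO over WT change was 0.23 smaller in b2 on the log2 scale (interaction −0.23, standard error 0.17), and for *Pls3* it was 0.08 larger (standard error 0.13). *Lcp1* had the largest value, 0.50, with a standard error of 0.49. With 2 lines per genotype and suffix, these values do not show that b1 and b2 responded alike.

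**Figure D4:**
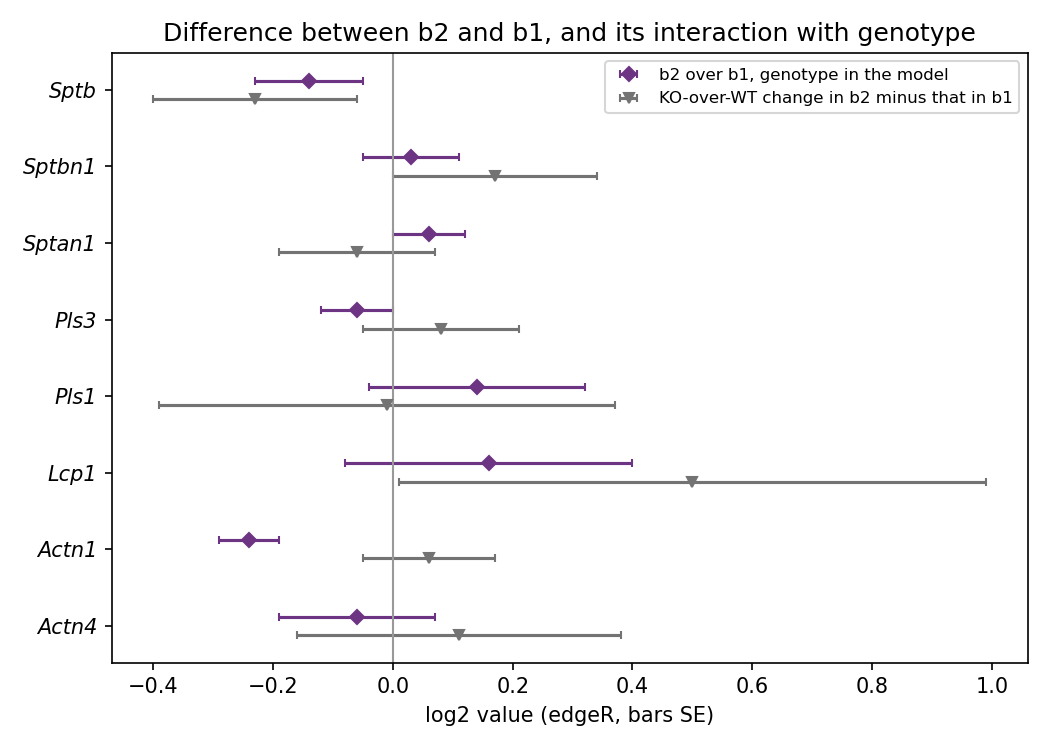
Log2 difference of b2 over b1 with genotype in the model (purple diamonds) and the interaction, the KO over WT change in b2 minus that in b1 (grey triangles), for the 8 members tested, with bars for the standard error of the edgeR fit. *Actn1* (−0.24) is the only member whose b2 value was called, and every interaction bar is wider than the bar beside it.

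Red-cell and leukocyte markers were set beside *Sptb*, *Ank1* and *Lcp1*, which are best known from blood cells. The 12 erythroid markers summed to 0.423 to 0.787 TPM in KO and 0.401 to 0.885 TPM in WT, none reached a mean of 1 TPM, and *Hba-x*, *Hbb-bh1*, *Hbb-y* and *Hbb-bt* were at 0 in every line. *Sptb* alone had 3.05 to 6.27 TPM in the same lines. Leukocyte markers summed to 9.45 to 18.0 TPM in KO and 10.6 to 18.3 TPM in WT, with *Ptprc*, the pan-leukocyte surface phosphatase, at a mean of 0.0343 TPM. For *Pls1*, the 6 brush border markers summed to 86.2 to 110 TPM in KO and 82.0 to 96.1 TPM in WT. Only 2 had a mean of at least 1 TPM, and *Fabp2* was at 0. *Epcam* made up most of these sums, with a mean of 90.8 TPM. *Espn* had a mean of 2.54 TPM, *Vil1* 0.491, *Krt20* 0.0165 and *Cdh17* 0.0156 TPM. Fibroblast markers summed to 11.4 to 30.2 TPM in KO and 5.85 to 20.6 TPM in WT, so the groups overlapped.

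The other genes of these pathways, from lists written with earlier results of these data known but not selected by change, were not called in KO against WT. In the spectrin and ankyrin skeleton 0 of 20 genes tested were called in either direction, in edgeR's test or with the suffix block, and 1 had an unadjusted p under 0.05. That gene was *Epb41*, which encodes protein 4.1, the clamp between spectrin and actin, with KO lines at 142 to 167 CPM and WT lines at 111 to 144 CPM (log2 fold change 0.30, standard error 0.09, adjusted p = 0.706). The list's median log2 fold change was 0.03. *Tmod3*, which caps filament ends, had 0.15 (adjusted p = 0.988) and the beta-spectrin gene *Sptbn4* −0.17 (adjusted p = 0.998).

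Of the other actin crosslinkers and bundlers, 0 of 37 were called and 3 had an unadjusted p under 0.05, with a median of 0.00. These were *Marcks*, an actin-binding kinase substrate at the membrane (log2 fold change −0.36, adjusted p = 0.791), *Plec*, a giant linker of filament systems (−0.24, adjusted p = 0.815), and *Cnn1*, a calponin (0.46, adjusted p = 0.856). Of the actins, 0 of 4 were called and none had an unadjusted p under 0.05: *Actb* and *Actg1*, the cytoplasmic actins, had 0.14 and −0.04, and the muscle actin *Acta1* 0.29 on about 1 CPM (0.584 to 1.64 CPM). Of the genes of actin assembly and turnover, 0 of 40 were called, with a median of 0.07. The filament-severing *Gsn* and *Scin* had 0.73 and 0.93 on means of 3.39 and 0.647 CPM in WT, and *Actr3*, a core subunit of the ARP2/3 complex, had 0.20 (adjusted p from 0.791 to 0.818 for the 3).

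The focal adhesion partners of the actinins link actin bundles to integrins. Of 18 tested, 16 had a positive log2 fold change (49.0% of all genes tested), 4 had an unadjusted p under 0.05 (5.62% of all genes tested), none was called, and the median was 0.10 against 0.00 over all genes. *Pdlim7*, a LIM protein of actin fibres, had KO and WT means of 106 ± 7.76 and 84.4 ± 10.7 CPM (log2 fold change 0.33, adjusted p = 0.706). *Vcl*, the gene of vinculin, had 242 ± 17.3 and 201 ± 25.5 CPM (0.27, adjusted p = 0.802), and *Tln2*, which encodes a talin, 134 ± 7.55 and 113 ± 11.4 CPM (0.24, adjusted p = 0.791). Of the 118 listed genes tested, 75 had a positive log2 fold change, a larger share than the 49.0% of all genes. An unadjusted p under 0.05 in edgeR's test was found for 11 of the 118, a larger share than the 5.62% of all genes. Whether these shares differ was not tested. DESeq2 called none of the listed genes either. Between b2 and b1, 18 of the 118 were called, 6 higher and 12 lower in b2, where 24.6% of all genes were called.

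Genes whose values ran most like those of *Sptb* or *Pls3* were sought among 12665 genes with a mean of at least 1 CPM. The measure was the root mean square difference of log2 CPM, centred per gene, over the 8 lines. It includes the KO against WT difference that chose *Sptb* and *Pls3*, so it favours genes higher in KO. The ranks are therefore a description and carry no support of their own. Nearest to *Sptb* were *Camk2n1*, an inhibitor of a calmodulin-dependent kinase, at 0.057, *Mtfp1*, a mitochondrial fission gene, at 0.089 and *Pik3c2b*, a lipid kinase gene, at 0.093, where the median gene lay at 0.427. The means of *Camk2n1* were 8.02 ± 0.743 CPM over the KO and 5.06 ± 0.328 CPM over the WT lines (SD, n = 4 lines). *Pls3* was rank 26 from *Sptb*, at 0.163. Nearest to *Pls3* were *Chp1* at 0.076, *Ptcd1* at 0.088 and *Ncoa6* at 0.094, with the median gene at 0.335, and *Sptb* was rank 157 from it. None of these 6 genes is in the spectrin, plastin or actinin families.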

How the data were processed

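Per the paper's methods, reads were trimmed (Trim Galore 0.6.4), assigned to GENCODE mouse transcripts by Salmon 0.14.1 and summed to genes by tximport (R 4.0.2). The estimated counts and the TPM that the authors deposited are separate tables. Rounding the estimated counts changed 27.8% of values, and 205 of 54281 rows lacked a symbol. After filterByExpr and TMM, 17272 genes entered edgeR's quasi-likelihood test (edgeR 4.0.16, R 4.3.3), with Benjamini-Hochberg adjustment over all of them and a threshold of 0.05. Alternatives used DESeq2 1.42.0, limma 3.58.1 on log2(TPM + 1) and log2(TPM + 0.1) of genes with a mean of at least 1 TPM, other scaling and filters, the suffix as a block, b1 or b2 alone, and each line left out. Single values were compared by two-sided exact permutation over 70 assignments of lines. Gene positions, lengths and 31-base stretches came from GENCODE M21, not the authors' release, and promoter windows from RefSeq. The edgeR script was tested on simulated data.

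The 9 genes, the gene lists and the comparisons were chosen with earlier results of these data known. Named genes were the 9 members, *Tet1*, of each list the genes called or else the 3 with the smallest p, the 3 genes nearest to *Sptb* and to *Pls3*, and *Xist* with 4 Y-linked genes. Genes named beyond this rule (single markers) were chosen after their values were seen. At the lowest total, 13916576, values well under 1 CPM rest on few counts. Nothing says that the libraries of a line were repeated, so p-values rest on a spread that mixes line, culture and library.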

Additional observations from a re-analysis of the deposited data

Results flagged for a closer look

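Each of 46 groups of 4 lines (CPM, family share and implied length of the members, in KO or WT) was examined for a line far from the other 3, and chance flags about 1 group in 20. The 3 found were *Ank1* in KO15, at 0.467 CPM (9 counts) against 0.0729 to 0.100 CPM in the other KO lines, the implied length of *Sptbn1* in KO9, at 7702 nucleotides against 7948 to 7984 in the other KO lines, and the implied length of *Lcp1* in WT12, at 3061 nucleotides against 2710 to 2762 in the other WT lines. None of the 9 members moved in opposite directions in b1 and b2 with all KO lines apart from all WT lines.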

How the results depend on the processing

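The number of members called in KO against WT was 0 in the edgeR test and in 14 of 18 alternatives. It was 2 (*Sptb* and *Pls3*) with DESeq2 and with the column suffix as a block, 1 (*Sptb*) in b1 alone, and 0 to 1 with single lines left out, the 1 being *Sptb* without KO15 (adjusted p = 0.0485). The edgeR adjusted p of *Pls3* without KO15 was 0.236. For b2 against b1, 1 member was called in all 16 alternatives, and for the interaction none in all 15. The number of neighbours in the order of levels that passed was 8, also on the scale of longest coding length, where the order itself differed, and 0 in WT lines alone and in KO lines alone, where 4 lines cannot pass the exact test. Neither family shares nor relative lengths passed between b2 and b1 in any of the 9 alternatives each. A single share or gene could not have passed these tests, whatever its values. No listed gene was called in any of 18 alternatives. Over all genes, KO against WT gave 7 calls, and 28 with the suffix block, 105 with DESeq2, 19 in b1, 5 in b2, and 2 and 3 with limma at pseudocounts of 1 and 0.1 TPM. The b2 against b1 comparison gave 4253 calls, 1587 and 1624 with the same limma fits and 2655 to 4807 with single lines left out. The interaction gave 0, and 168 with no filter on low counts, 1 and 17 with limma and 0 to 8 with single lines left out. No paired analysis was possible because KO and WT lines share no replicate number and the sources used here do not say which lines are littermates.

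Depth limits *Ank1* (1 to 9 counts) and *Lcp1* (26 to 48 counts). TPM of *Sptan1* and *Pls1* depend on the isoforms to which Salmon assigned reads. Whether reads were assigned to the right isoform was not tested.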
